A study of Bos taurus with 23 samples.

Results

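The heifers that became pregnant to artificial insemination (AI-pregnant) at experimental station A were compared with those at station B. They are 12 of the 23 heifers sequenced in the study, 6 at each station, and were taken by the station and pregnancy outcome that their labels give. All were Angus-Simmental crossbred beef heifers in their first breeding season, were synchronized and inseminated at a fixed time, and gave blood at insemination, so pregnancy status was not yet determined when the sample was drawn. Peripheral white blood cells (PWBC) of each heifer gave 1 library from a stranded mRNA kit, and each heifer is 1 replicate. No treatment or genotype other than the herd distinguishes the groups. By the records of the study, the mean age and the mean weaning weight of AI-pregnant heifers were higher at station B than at station A. These traits therefore go with station too. The libraries of station A carry numbers from SL220764 to SL220775 and those of station B from SL253803 to SL253812, so station and the series of library numbers coincide and cannot be told apart. The other 11 heifers are used only where named. They are 5 heifers of station A that conceived afterwards by a bull (NB-pregnant) and 6 of station B that did not conceive in the season (non-pregnant).

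PWBC are the nucleated cells of blood, mainly neutrophils, lymphocytes and monocytes, with smaller numbers of eosinophils and basophils. Their RNA reflects both the mixture of cells and the transcripts that each cell holds, and it changes with infection, stress, hormones and the handling of blood. In bulk samples, fewer cells of a type and less RNA per cell cannot be told apart. Genes are given by the Ensembl identifiers of the counts, and 24 of them are paired with a symbol by the tables of the study. Lists of cell type markers could not be matched to the identifiers, so the cell mixture of the libraries was not checked here.

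Total counts were 5157687 to 15753538 read pairs in station A and 6602567 to 9330573 in station B, so a level of 1 CPM (a count scaled to a library total of 1000000) rested on 5.16 to 15.8 pairs. Of 24616 genes, 12059 had more than 1 CPM in 6 or more of the 12 libraries and were tested. The library SL253808, labelled station B, stood apart from the other 5 libraries of its station and is shown by itself in what follows. Its profile, and that of the non-pregnant heifers SL253804 and SL253811 described at the end, goes against the station on the label. The labels and the preparation of these 3 libraries could not be checked from the counts, so every station difference that includes them rests on the labels as given. The study reports a larger share of aligned read pairs in every AI-pregnant library of station B than in any library of station A. SL253808, SL253804 and SL253811 were each above every station A library in that share. What this means for their labels was not tested. A pair of station A libraries also differed from their own group, namely SL220771 and SL220772, in which the 10 most abundant genes held 8.51% and 7.12% of the counts, against 3.23% to 3.94% in the other 4. Principal components of log2 CPM placed 83.7% of the variance on the first component. The 6 station A libraries had scores of -140.0 to -100.1 on it, the 5 station B libraries 133.5 to 176.0, and SL253808 a score of -93.8.

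**Figure D1:**
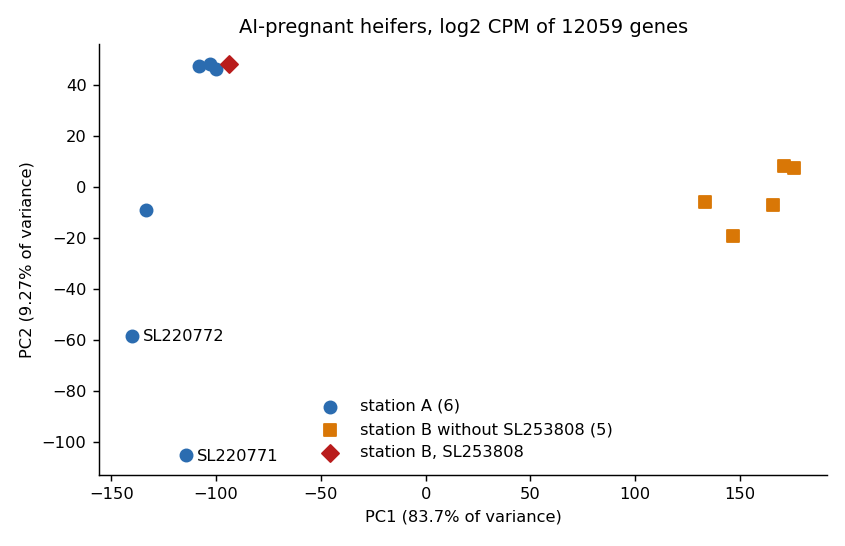
Principal components of log2 CPM of 12059 genes in the 12 AI-pregnant heifers, with 1 point per library and the share of variance of each component on its axis. SL253808 lies at -93.8 on the first component, beside station A (-140.0 to -100.1), and the other 5 station B libraries lie at 133.5 to 176.0, while SL220771 and SL220772 are drawn out along the second component.

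Rank correlations of log2 CPM over the 12059 genes described the same grouping. Spearman's rho was 0.969 to 0.988 among the 5 station B libraries and 0.842 to 0.990 among the 6 of station A. Between these 2 sets rho was 0.482 to 0.710, while SL253808 had a rho of 0.830 to 0.978 with station A and of 0.664 to 0.719 with the other libraries of its own station. These are values across genes, which are not independent replicates. Of the 100 genes with the highest mean CPM, station A shared 82 with SL253808 and 42 with the 5 station B libraries. The 5 station B libraries shared 46 with SL253808.

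With all 12 libraries, 7192 genes (59.6% of those tested) differed between the stations at an adjusted p under 0.05 in edgeR's quasi-likelihood test. Of these, 3712 (30.8%) were higher and 3480 (28.9%) lower in station B. Without SL253808 the count was 9469 (78.5%), with 4262 (35.3%) higher and 5207 (43.2%) lower. Every one of the 7192 genes was also called without SL253808 and had the same sign, and 2277 were called only without it. SL253808 was left aside for its profile, so the adjusted p values of the 11-library comparison hold for the remaining libraries and not for station B as labelled. The levels of station A and station B did not overlap in CPM at 2463 genes (20.4%) with all 12 libraries, of which 1338 (11.1%) were higher and 1125 (9.33%) lower in station B. Without SL253808 they did not overlap at 7674 genes (63.6%), 3394 higher (28.1%) and 4280 lower (35.5%).

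The differences were large and unequal in the 2 directions. Log2 fold changes are station B minus station A throughout, and their median over all tested genes was -0.16 with 12 libraries and -0.18 with 11. Because most genes were called, the scaling of the libraries has no large unchanged set of genes to rest on. Higher and lower are therefore relative to that scaling, and neither 0 nor these medians marks an unchanged level. Without SL253808 the distribution had a peak at 1.38 and a long tail below 0, with a 5th percentile of -6.24 and a 95th of 2.04. The genes called higher had a median log2 fold change of 1.44, close to that peak, and those called lower one of -3.10. A log2 fold change of -4 or less was found at 1830 genes (15.2%), and one of 4 or more at 1 gene. A gene could pass the filter through the 6 station A libraries alone but not through the 5 station B libraries alone, which bears on these counts in the tails. With SL253808 included, the peak was at 1.17, 51 genes reached -4, and the medians of the called genes were 1.39 and -2.07.

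**Figure D2:**
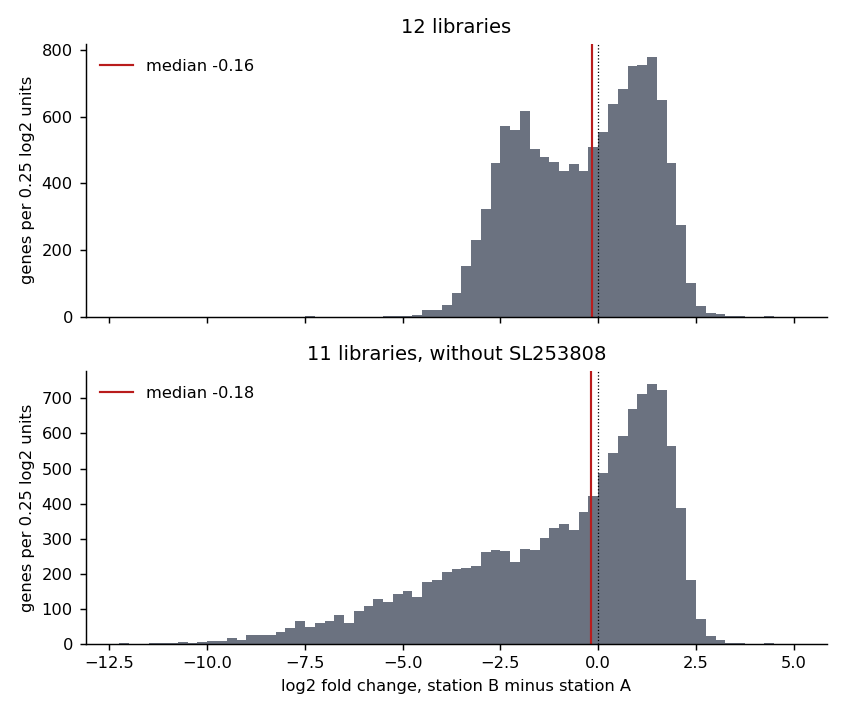
Log2 fold change of each of 12059 genes, station B minus station A, as the number of genes per 0.25 log2 units, with all 12 libraries above and without SL253808 below. The red line is the median (-0.16 and -0.18). The lower tail reaches past -4 at 51 genes with SL253808 and at 1830 genes without it.

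Many genes of the lower tail were near or under detection in the 5 station B libraries. The number of genes above 1 CPM was 12129.8 ± 368 (SD, n = 6) in station A and 10558.6 ± 173 (SD, n = 5) in the 5 station B libraries, and the ranges, 11482 to 12456 and 10413 to 10828, did not overlap (exact permutation test, two-sided p = 0.00433, the smallest that 6 against 5 libraries allow). SL253808 had 12354. With SL253808 counted in station B, its libraries had a mean of 10857.8 ± 749 (SD) such genes (exact permutation test, two-sided p = 0.0108). Of the tested genes, 0 to 87 had no count in a station A library, 3 in SL253808 and 327 to 548 in the other 5. The filter passes a gene through station A alone but not through the 5 station B libraries alone, so this contrast is in part fixed in advance. Over all 24616 genes with no filter, 74 had no count in any of the 5 station B libraries and more than 1 CPM in all 6 of station A, and 0 genes had no count in station A and more than 1 CPM in all 5 of station B. The share of counts in the 100 most abundant genes was 14.3% to 26.8% in station A and 15.6% to 19.2% in station B (exact permutation test, two-sided p = 0.465), so the groups overlapped in that measure.

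A set of 967 genes was above 1 CPM in all 6 libraries of station A and in none of the 5 of station B. Over all 24616 genes with no filter, 27 genes showed the reverse. The filter of 6 libraries admits a gene through station A alone but not through the 5 station B libraries alone, so this comparison was made without it. Since these 11 libraries chose the set, only the other 12 libraries of the study inform on it. In SL253808, 942 of the 967 genes (97.4%) were above 1 CPM, with a median of 9.66 CPM against medians of 6.4 to 11.2 in the station A libraries that defined the set and of 0.107 to 0.221 in the 5 of station B. Of the 27 genes of the reverse set, 6 were above 1 CPM in SL253808. The NB-pregnant heifers of station A had 928 to 956 of the 967 genes above 1 CPM. The non-pregnant heifers of station B fell into separate levels, with 938 genes in SL253804 and 957 in SL253811, and 1, 77, 66 and 67 genes in SL253805, SL253806, SL253813 and SL253814. The 967 genes held 1.67% to 2.39% of all counts in station A AI-pregnant heifers, 1.79% in SL253808 and 0.0181% to 0.0298% in the other 5 station B libraries.

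**Figure D3:**
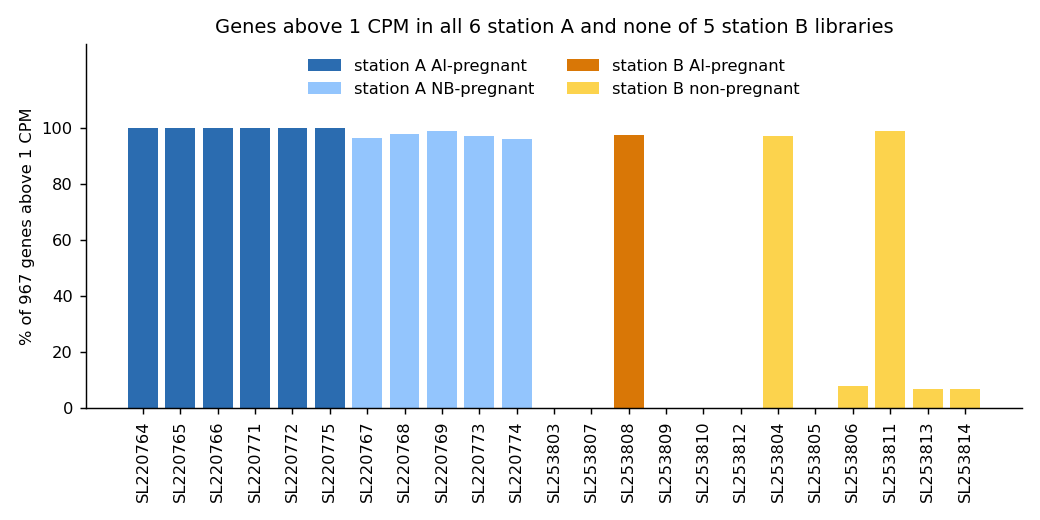
Percentage of the 967 genes chosen as above 1 CPM in all 6 station A and none of 5 station B AI-pregnant libraries that were above 1 CPM in each of the 23 libraries. The bars of the 11 libraries that chose the set are 100 or 0 by construction, and SL253808, SL253804 and SL253811 of station B stand at 97.4, 97.0 and 99.0, beside 96.0 to 98.9 in the NB-pregnant heifers of station A.

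The place of SL253808 was measured with calls that did not use it. At the 9469 genes called without it, its log2 CPM was nearer to the mean of station A than to that of the other 5 station B libraries at 8343 genes, or 88.1% (exact Clopper-Pearson 95% interval 87.4 to 88.8, which covers counting error only and treats genes as independent). The share was 92.8% of the genes lower in station B and 82.3% of the genes higher there. Its level was within the range of the 6 station A libraries at 62.0% of these genes and within that of the 5 station B libraries at 7.28%. When each other library was left out in the same way, with SL253808 kept in station B, the share of called genes nearer to the other station was 3.41% to 14.9% in station A and 0.379% to 6.21% in station B. SL253808 was not identical to station A in level. At 36.6% of all tested genes it lay outside the range of the 6 station A libraries, against 15% to 28.5% for each of 5 station A libraries and 57.5% for SL220771, each set against the remaining 6 of these 7 libraries.

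**Figure D4:**
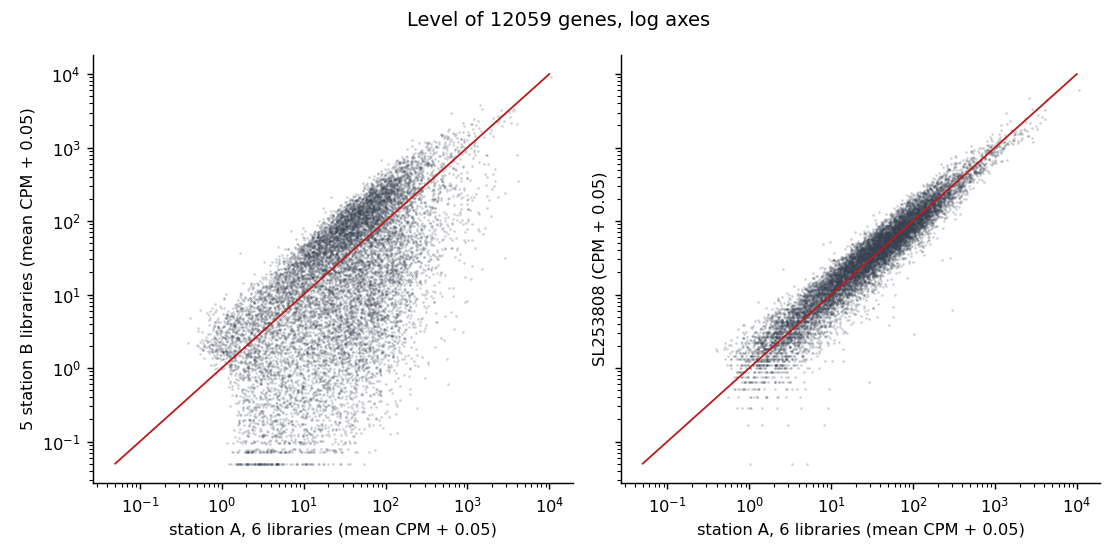
Level of each of 12059 genes as CPM + 0.05 on log axes, station A (mean of 6 libraries) against the mean of 5 station B libraries on the left and against SL253808 on the right. The red line marks equal levels. The left cloud has a dense band above the line and a broad spread below it, and the right cloud follows the line.

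The difference between the stations varied with abundance and with gene length. In 5 equal bins of mean CPM, from the lowest to the highest, the median log2 fold change without SL253808 was -1.03, -0.93, -0.35, 0.33 and 0.59. The genes at -4 or less numbered 534, 477, 377, 282 and 160 in the same order. In 5 bins of length, from the shortest to the longest, the medians were -0.71, -0.52, -0.20, 0.13 and 0.34. The lower tail was thus present in every bin, including 160 of 2412 genes with a mean above 104 CPM, and Spearman's rho across genes was 0.215 with abundance and 0.136 with length. The filter admits a gene through station A alone but not through the 5 station B libraries alone, which bears on the low-CPM bins. The bins were also set by a mean CPM over libraries that gave the fold changes. Without SL253808, requiring more than 1 CPM in all libraries moved the median over all tested genes from -0.18 to -0.011. The bins were not remade with that filter, so its share in the trend is unknown. The part of abundance and of length in the difference between the stations was not tested.

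The 24 genes with a symbol were chosen by the study for differences between pregnancy outcomes within a station in these heifers. They are therefore not a sample of the genes that differ between stations. The AI-pregnant heifers of 1 station were always 1 side of that choice, and the same heifers are compared here. A gene chosen as high or low in them is more likely to differ between the stations in that direction. The fold changes and p values of the named genes below are not free of this choice. With 12 libraries, 22 passed the filter on low counts and 11 of them were called (50.0%, against 59.6% of all genes), 4 higher and 7 lower in station B. Without SL253808, 13 of the 22 were called (59.1%, against 78.5%), 4 higher and 9 lower. Of these 13, the comparison of the heifers of other outcomes, described at the end, called only TTLL1 and ALAS2. The median log2 fold change of the 22 genes was -0.81 with 12 libraries and -0.73 with 11, beside -0.16 and -0.18 over all genes. SL253808 was nearer to station A at a smaller share of these genes than of all genes called. At 4 of the 13 genes called without it, or 30.8%, it was nearer to station A, against 88.1% of all 9469, and at 9 it was nearer to the other station B libraries. Among these 9 are TAC3, TFF2, ALAS2 and SAXO2. The study chose them for a difference of the station B AI-pregnant heifers, SL253808 included, from the non-pregnant ones, which bears on its place at them. It chose the others of the 9 within station A, without SL253808. What part the choice has in the place of SL253808 was not tested. At TAC3, TTLL1 and ALDH5A1 SL253808 lay beyond the mean of the other station B libraries, away from station A. At the rest of the 9 it lay between the means of both groups. No test was made of the difference between 30.8% and 88.1%, since the list was chosen with results of these libraries known.

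**Figure D5:**
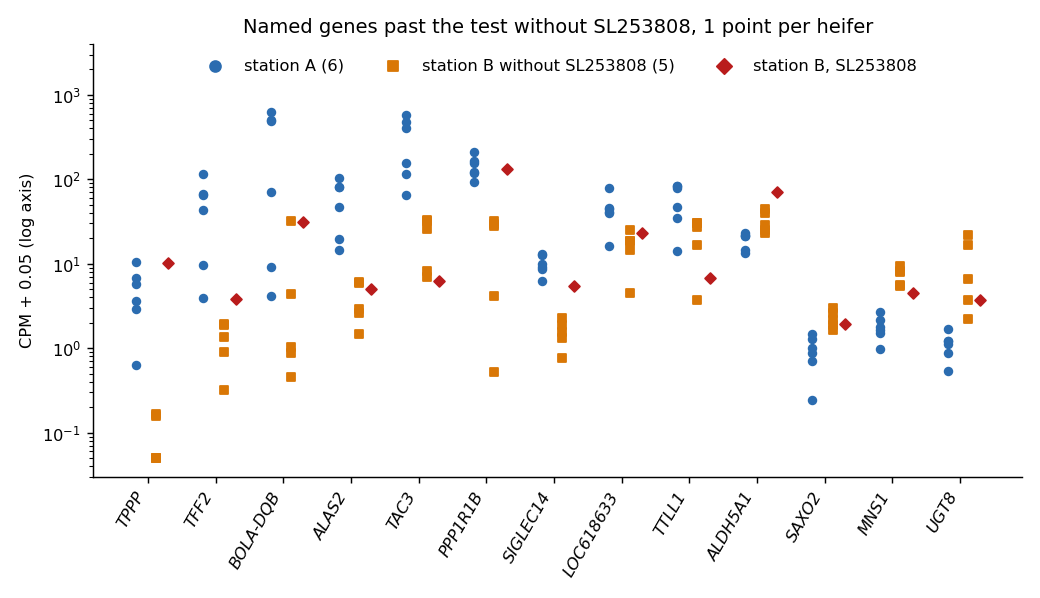
CPM + 0.05 on a log axis of the 13 named genes called without SL253808, with 1 point per heifer, ordered from the lowest to the highest log2 fold change. At TPPP and PPP1R1B the point of SL253808 lies within the range of station A, and at TAC3, ALAS2 and MNS1 it lies on the side of the other 5 station B libraries.

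Of these genes, 4 were also targets of quantitative PCR in the study, and their primers are shown since they identify the transcript that its PCR amplified from each of these genes, whose counts are described next. Each is given 5′ to 3′ in lower case, in the order of the study, and positions in the genome were not analysed here.
TAC3 first: gcaccttcaagtaccctcca
TAC3 second: tcttcacgatgtagcccagg
SIGLEC14 first: tccggctcaacgtctcctat
SIGLEC14 second: ctccaggatgggcagtgac
ALDH5A1 first: ccccagcaaaagaaaggcg
ALDH5A1 second: cttccgtgtgatcatggcact
TTLL1 first: agaaggacgaaagcgggaag
TTLL1 second: aacaggttgtagtcggcagg

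Among genes of signalling, transport and the cell surface, TAC3 had the largest fold change that held in both fits. It encodes the precursor of neurokinin B, a tachykinin best known from the control of GnRH release. TAC3 (ENSBTAG00000021807) was at 65.6 to 581 CPM in station A, with a median of 283. In the 5 station B libraries it was at 6.85, 33.3, 8.18, 25.9 and 32.1 CPM, and in SL253808 at 6.13 CPM. All 6 station B heifers lay below all 6 of station A, and SL253808 had the lowest level of the 12. The study chose TAC3 for a higher level in non-pregnant than in AI-pregnant heifers of station B, which bears on the size of this gap. The log2 fold change was -4.04 ± 0.70 (SE) with 12 libraries and -3.85 ± 0.66 without SL253808, with adjusted p = 0.00289 and 0.000116 in the quasi-likelihood test.

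PPP1R1B, an inhibitor of protein phosphatase 1 that dopamine signalling regulates, differed in another way. Its level was 92.4 to 210 CPM in station A, with a median of 138. The 5 station B libraries had 0.472, 27.7, 31.7, 4.08 and 29.4 CPM, all below station A, whereas SL253808 had 133 CPM. With 12 libraries the log2 fold change was -1.99 ± 0.84 (adjusted p = 0.0564, quasi-likelihood test). It was called without SL253808 (log2 fold change -2.91 ± 0.70, adjusted p = 0.00179) and also without SL253803 (adjusted p = 0.0420). With all 12 libraries it was called with size factors of DESeq2 in edgeR (adjusted p = 0.0499), by DESeq2 (adjusted p = 0.0154) and by limma-voom with quality weights (-3.37, adjusted p = 0.00136). These quality weights do not count all libraries equally. The other 4 genes of this group did not pass the test in either fit. P2RY12, the ADP receptor of platelets, had a log2 fold change of 0.78 ± 0.39, and CNKSR3, a scaffold protein of Ras signalling, one of -0.95 ± 0.43 (adjusted p = 0.0955 and 0.0695, quasi-likelihood test). These calls depended on the libraries and on the method. CNKSR3 passed without SL253803 (adjusted p = 0.0277, quasi-likelihood test). P2RY12 passed when SL253808 was left out together with SL220765, SL220771 or SL253807 (adjusted p = 0.0250, 0.0493 and 0.0347, quasi-likelihood test). With all 12 libraries, limma-voom with quality weights called P2RY12 (1.21, adjusted p = 0.00259) and CNKSR3 (-0.84, adjusted p = 0.0212). ADAM20 and LOC107131247 had log2 fold changes of 0.28 ± 0.46 and 0.57 ± 1.36, and LOC107131247 ranged from 0 to 128 CPM within station B.

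ALAS2 (ENSBTAG00000013178), the erythroid enzyme of the first step of heme synthesis, was the only erythroid gene with a symbol. It was at 14.7 to 102 CPM in station A, with a median of 63.8, and at 1.42, 5.89, 6.06, 2.87 and 2.57 CPM in the 5 station B libraries. SL253808 had 4.95 CPM, within the range of its own station, and no AI-pregnant heifer of station B reached the level of any of station A. The non-pregnant SL253804 and SL253811 of station B had 16.8 and 44.3 CPM, and the other non-pregnant heifers 3.71 to 9.50 CPM. The study chose ALAS2 for a higher level in non-pregnant than in AI-pregnant heifers of station B, which bears on the size of this gap. The log2 fold change was -3.91 ± 0.60 with 12 libraries and -3.96 ± 0.62 without SL253808, with adjusted p = 0.00289 and 5.4e-05 in the quasi-likelihood test. As a single gene it does not measure the share of red cell precursors.

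Among the immune receptors, 2 of the 3 genes tested were lower in the AI-pregnant heifers of station B in both fits. SIGLEC14 (ENSBTAG00000035868), a sialic acid binding receptor of myeloid cells, was at 6.20 to 12.9 CPM in station A, with a median of 9.53. The 5 station B libraries had 0.709, 1.29, 1.82, 2.21 and 1.49 CPM, and SL253808 had 5.42 CPM. SL253808 was thus between the ranges of both groups, and the 6 libraries of each station did not overlap. The NB-pregnant heifers of station A had 2.07 to 5.85 CPM of SIGLEC14. The non-pregnant SL253804 and SL253811 of station B had 3.23 and 10.5 CPM, and the other non-pregnant heifers 1.11 to 2.96 CPM. The log2 fold change was -2.23 ± 0.43 with 12 libraries and -2.71 ± 0.33 without SL253808, with adjusted p = 0.00299 and 4.5e-06 in the quasi-likelihood test. BOLA-DQB (ENSBTAG00000021077), a beta chain of MHC class II that presents antigen to helper T cells, belongs to a polymorphic multigene family, so its counts may be shared with close copies and are uncertain. It was at 492, 618 and 510 CPM in SL220764, SL220765 and SL220766, and at 4.07, 9.17 and 70.9 CPM in SL220771, SL220772 and SL220775. The 5 station B libraries had 0.827, 32.4, 4.39, 0.993 and 0.406 CPM and SL253808 had 31.3, so the groups overlapped. The log2 fold change was -4.56 ± 1.42 (adjusted p = 0.0168, quasi-likelihood test).

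FCER1A, the alpha chain of the IgE receptor of basophils and mast cells, was at 8.34 to 30.9 CPM in station A and 6.48 to 21.0 CPM in station B. Its log2 fold change of -0.31 ± 0.38 did not pass the test (adjusted p = 0.480, quasi-likelihood test). KIR3DL1, a receptor of natural killer cells from a multigene family, did not pass the filter on low counts. It was at 0.655 to 9.07 CPM in station A and 0.151 to 1.06 CPM in station B, overlapping ranges (exact permutation test of the mean CPM, two-sided p = 0.0108, 1 of 24 such tests, not adjusted).

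Among the 4 genes of innate defence, TFF2 was called and the other 3 were not. TFF2 (ENSBTAG00000030814), a trefoil peptide of mucous secretions, was at 3.94 to 116 CPM in station A, with a median of 54.0. The 5 station B libraries had 1.30, 0.857, 1.82, 1.88 and 0.271 CPM and SL253808 had 3.77. The AI-pregnant heifers of the stations did not overlap, though SL253808 came within 0.17 CPM of the lowest station A heifer. TFF2 too was chosen for a higher level in non-pregnant than in AI-pregnant heifers of station B, which bears on this gap. The non-pregnant SL253804 and SL253811 of station B had 22.4 and 69.8 CPM, and the other non-pregnant heifers 0.655 to 8.07 CPM. The log2 fold change was -4.99 ± 0.85 with 12 libraries and -5.38 ± 0.86 without SL253808, with adjusted p = 0.00289 and 6e-05 in the quasi-likelihood test. LYZ, a lysozyme that cleaves bacterial cell walls, has close copies in cattle, so its counts are uncertain, and was among the abundant transcripts, at 1026 to 1671 CPM in station A and 657 to 2146 CPM in station B. Its log2 fold change of -0.18 ± 0.31 did not pass the test (adjusted p = 0.616, quasi-likelihood test). ANG, a secreted ribonuclease, and DMBT1, a scavenger receptor that binds bacteria, had log2 fold changes of -0.68 ± 0.36 and 0.39 ± 0.53 (adjusted p = 0.118 and 0.523, quasi-likelihood test). Without SL253808 and SL253810 together, ANG passed the test (log2 fold change -0.84, adjusted p = 0.0488). With all 12 libraries it passed in limma-voom with quality weights (-0.75, adjusted p = 0.0104) and in edgeR over the genes above 1 CPM in all 12 (-0.94, adjusted p = 0.0283).

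Genes of microtubules and the axoneme went in both directions. MNS1 (ENSBTAG00000000271), a protein of motile cilia and sperm flagella, was at 0.927 to 2.60 CPM in station A, with a median of 1.65. In the 5 station B libraries it was at 9.33, 7.93, 5.45, 5.52 and 8.12 CPM, and in SL253808 at 4.48 CPM, above every station A heifer and below the other 5. SAXO2, a protein that stabilizes axonemal microtubules, was at 0.194 to 1.43 CPM in station A and 1.61 to 2.98 CPM in station B, with SL253808 at 1.89 CPM. Both were called higher, with log2 fold changes of 1.97 ± 0.35 and 1.25 ± 0.39 (adjusted p = 0.00289 and 0.0158, quasi-likelihood test). Neither overlapped between the AI-pregnant heifers of the stations. The non-pregnant heifers of station B had 0.734 to 1.43 CPM of SAXO2. The study chose SAXO2 for a lower level in them than in the AI-pregnant heifers of station B, which bears on its gap between the stations.

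TTLL1 (ENSBTAG00000012030), the catalytic subunit of a tubulin polyglutamylase, was lower in station B. It was at 14.1 to 83.9 CPM in station A, with a median of 63.2, at 30.5, 16.8, 27.3, 3.64 and 30.6 CPM in the 5 station B libraries and at 6.72 CPM in SL253808. The groups overlapped through SL220772, the lowest of station A. The log2 fold change was -1.54 ± 0.58 (adjusted p = 0.0377, quasi-likelihood test). The call was lost without SL220765, SL220766, SL220771, SL253807 or SL253810, with adjusted p = 0.0748, 0.0684, 0.0786, 0.0744 and 0.0533. TPPP (ENSBTAG00000047116), which promotes the assembly of microtubules, was at 0.582 to 10.5 CPM in station A and at 10.1 CPM in SL253808. The 5 other station B libraries held 2 counts of it in all, against 371 counts in station A. The pooled ratio of station A to these 5 was 121, with an exact 95% counting interval of 33.1 to 999 that does not include the spread between heifers. TPPP was called without SL253808 (adjusted p = 1.3e-05, quasi-likelihood test) and not with it (log2 fold change -1.60 ± 1.28, adjusted p = 0.276). With all 12 libraries, limma-voom with quality weights gave TPPP a log2 fold change of -5.67 (adjusted p = 1.8e-08). Its quality weights do not count all libraries equally. The value is near the -6.32 of the quasi-likelihood fit without SL253808, so it does not show the call with SL253808 counted in full.

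Both metabolic enzymes that passed the filter were higher in station B. UGT8 (ENSBTAG00000004574), which adds galactose to ceramide, was at 0.491 to 1.65 CPM in station A, with a median of 1.11. The 5 station B libraries had 3.66, 16.5, 22.0, 6.51 and 2.17 CPM and SL253808 had 3.65, so all 6 lay above station A. ALDH5A1 (ENSBTAG00000021902), the succinate semialdehyde dehydrogenase of GABA breakdown, was at 13.4 to 23.0 CPM in station A and at 28.3, 23.4, 25.3, 44.1 and 39.5 CPM in the 5 station B libraries. SL253808 had 70.9 CPM, the highest of all 12 and outside both ranges. The log2 fold changes were 3.12 ± 0.63 and 0.98 ± 0.29 (adjusted p = 0.00312 and 0.0125, quasi-likelihood test). GSTM3, a glutathione transferase, did not pass the filter on low counts and was at 0.190 to 1.15 CPM in station A and 0.118 to 7.50 CPM in station B (exact permutation test of the mean CPM, two-sided p = 0.327).

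Of the 2 loci named by number, LOC618633, which the study lists as resembling a myeloid differentiation marker, was lower in station B (log2 fold change -1.34 ± 0.41, adjusted p = 0.0154, quasi-likelihood test), at 16.1 to 78.5 CPM in station A and 4.47 to 24.9 CPM in station B. LOC522763 ranged from 0.0687 to 53.4 CPM within station A and from 2.87 to 6.51 CPM in station B. Its log2 fold change of -1.50 ± 0.94 did not pass the test (adjusted p = 0.170, quasi-likelihood test), but it passed without SL220775 (log2 fold change -1.80, adjusted p = 0.0450).

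The genes with the smallest p in each direction have no symbol here. ENSBTAG00000003545 was at 41.6 to 68.9 CPM in station A and 176 to 268 CPM in the 5 station B libraries, with SL253808 at 117 CPM. ENSBTAG00000031579 was at 20.1 to 44.3 CPM in station A and 131 to 238 CPM in the 5, with SL253808 at 68.8 CPM. Among genes lower in station B, ENSBTAG00000014761 was at 23.0 to 52.6 CPM in station A and 0.536 to 2.71 CPM in the 5, with SL253808 at 4.83 CPM. ENSBTAG00000005186 was at 15.3 to 21.3 CPM in station A and 2.47 to 5.15 CPM in the 5, with SL253808 at 5.54 CPM. SL253808 lay between the ranges of the other libraries at all 4. Their log2 fold changes with 12 libraries were 2.0 ± 0.25, 2.42 ± 0.33, -4.20 ± 0.54 and -2.27 ± 0.30 (adjusted p = 0.00289 for each, quasi-likelihood test).

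The heifers of other outcomes, whose libraries the AI-pregnant comparison did not use, show the station difference with outcome and station coinciding. At the 9469 genes called without SL253808, the 5 NB-pregnant heifers of station A were nearer to the station A mean at 89.2% to 92.0%. The non-pregnant heifers of station B were nearer to it at 85.8% in SL253804 and 95.6% in SL253811, and at 1.11% to 4.81% in the other 4. In the comparison of these 11 heifers, 1894 genes (15.7%) were called, 1491 higher (12.4%) and 403 lower (3.34%) in station B. The smallest adjusted p was 0.0480 in the quasi-likelihood test, so the count turned on single libraries, and it was 0 without any 1 of 7 of the 11 heifers and 5540 without SL253811. Without SL253804 and SL253811, left aside for where they lie, 8649 genes (71.7%) were called, 3589 higher (29.8%) and 5060 lower (42.0%). Of these, 8324 were among the 9469, all with the same sign, which is 96.2% of the 8649 and 87.9% of the 9469. SL253804 and SL253811 were left aside for their place at these same 9469 genes. The overlap is therefore in part built in by that choice and is not a replication of the station difference.

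A test of whether the station difference of AI-pregnant heifers differed from that of the other heifers, in 1 fit of all 23 libraries, called 0 genes in edgeR's quasi-likelihood test and 0 in DESeq2. Without SL253808, SL253804 and SL253811 the quasi-likelihood test also called 0 genes. An unadjusted p under 0.05 was found at 74 of 12059 genes in the quasi-likelihood test, and at 123 without these 3 libraries. Both counts are below the share of 0.05 that chance alone would give on average. The absence of calls does not show that the differences were equal. At TAC3 the levels were 116 to 330 CPM in the NB-pregnant heifers of station A, 130 and 226 CPM in SL253804 and SL253811, and 13.2 to 72.3 CPM in the other 4 non-pregnant heifers. At TPPP the NB-pregnant heifers were at 0.547 to 2.63 CPM, SL253804 and SL253811 at 3.15 and 4.01 CPM, and the other 4 at 0 to 0.179 CPM. At the 13 named genes called without SL253808, the test of the 11 other heifers called TTLL1 (log2 fold change -2.82) and ALAS2 (-2.56). It did not call TAC3 (-1.75), TFF2 (-1.55), BOLA-DQB (-1.15), TPPP (-0.29), SIGLEC14 (-0.24), UGT8 (0.80), MNS1 (0.48) or SAXO2 (0.033). ALDH5A1 (-0.32), PPP1R1B (0.27) and LOC618633 (0.39) were not called either, with a sign opposite to that in AI-pregnant heifers. SL253804 and SL253811 are included there.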

How the data were processed

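Alignment by the authors was to the genome build UMD3.1. They then removed pairs with several alignments or marked as duplicates and counted the rest on Ensembl genes with HTSeq. They deposited, per station, whole-number counts for all genes without normalization, which were used here, and FPKM of retained genes, the counts divided by gene length and library total, which were used only to derive gene lengths. The strand setting of the counting and the aligner are not given in the sources used here, so antisense and overlapping genes cannot be told apart.

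Count tables of both stations were joined by gene identifier, and genes with more than 1 CPM in 6 or more of the 12 libraries were kept. edgeR's quasi-likelihood test (robust dispersion, TMM factors) was applied to station, with Benjamini-Hochberg adjustment over all 12059 genes at 0.05, with and without SL253808. SE was taken as the absolute log2 fold change divided by the root of the F statistic. For single values the test was an exact permutation test, two-sided. Principal components and the place of a library used log2 CPM with TMM factors and a prior count of 2. Permutations of 6 against 5 or 6 libraries limit the smallest p.

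Named genes are the 24 of the study's tables of differentially expressed genes and, per direction, the 2 identifiers of smallest p. The members and lists were chosen with earlier results of these data known. No reference table paired the other identifiers with symbols, so lists of markers and pathways had fewer than 3 matched members and were not matched. Alternatives were other scaling factors, DESeq2, limma-voom with quality weights, the study's rule (P of 0.01 or less in edgeR and DESeq2), other filters and each heifer left out. Software comprised edgeR 4.0.16, DESeq2 1.42.0 and limma 3.58.1 in R 4.3.3, and, under Python 3.11.15, scipy 1.17.1, pandas 2.3.3, matplotlib 3.10.9 and numpy 2.4.6.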

Additional observations from a re-analysis of the deposited data

Results flagged for a closer look

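Single heifers far from the other 5 of their group, by Dixon's criterion at the 95% level, were found for 11 of 56 sets of 6 values (24 named genes and 4 library measures in each station), where chance alone flags about 5% of sets. SL253808 accounted for 5 of the 11. It had a score of -93.8 on the first principal component, 12354 genes above 1 CPM, 5.42 CPM of SIGLEC14, 10.1 CPM of TPPP and 133 CPM of PPP1R1B, each higher than in the other 5 station B heifers except the score, which was lower. These 5 measures are not independent of one another.

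In station B, LYZ was at 2146 CPM in SL253809, DMBT1 at 4.33 CPM in SL253812 and GSTM3 at 7.50 CPM in SL253810, each the highest of the 6. The 10 most abundant genes held 4.49% of the counts in SL253812, also the highest. In station A, LYZ was at 1671 CPM in SL220765 and LOC107131247 at 92.9 CPM in SL220766.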

How the results depend on the processing

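The count of called genes stayed within 1.5 times of 7192 (12 libraries) and of 9469 (11 libraries) under every alternative run, at 5627 to 10377 and at 6753 to 11150. Other filters tested other numbers of genes, so the shares called moved more than the counts. Without a filter beyond 1 count, 7647 of 18481 genes and 11150 of about 18370 were called. With more than 1 CPM required in all libraries, these were 5627 of 9053 and 6753 of 9064. With single heifers left out, it was 5928 to 9469 and 9105 to 9700. The share of calls higher in station B was 45% to 57.4% and 41.1% to 48.0%. The count for the heifers of other outcomes, 1894, was 0 without normalization factors, 4188 with DESeq2, 0 to 5540 with single heifers left out and 8649 without SL253804 and SL253811, an alternative added after the data had been seen, as was leaving out SL220771 and SL220772. Without factors, SL253808 was nearer to station A at 85.9% of genes. Of the named genes, 447 values with 12 libraries and 380 with 11 kept direction and side of the threshold, 13 and 11 newly passed it, 6 and 4 lost it, and 5 and 10 changed sign, all at genes that were not called. With limma-voom these were LYZ (0.061 with 12 libraries, 0.071 with 11), LOC107131247 (-2.39 and -2.25) and LOC522763 (1.21 and 1.23). With single heifers left out, log2 fold changes ranged from -0.55 to 1.60 and from -2.44 to 1.31 for LOC107131247 (12 and 11 libraries), from -0.16 to 0.77 and from -0.038 to 0.90 for DMBT1, and with 11 libraries from -0.28 to 0.095 for FCER1A and from -0.46 to 0.066 for LYZ. LOC107131247 was at -0.16 with 11 libraries without SL220771 and SL220772. ALDH5A1 lost its call with 11 libraries when all had to exceed 1 CPM (adjusted p = 0.0662, edgeR). The cause of these changes was not tested. No paired analysis applies, because the groups are different heifers at different stations. At the lowest depth, 1 CPM is 5.16 pairs, which limits the precision of genes close to the filter.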
